A study of Mus musculus with 36 samples.

Results

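Induced regulatory T cells (iTreg) were compared with pathogenic Th17 cells (Th17p), both grown without inhibitor, across all genes of the deposited count table. The comparison takes in 12 of the 36 samples of the series. These are 6 of its 18 libraries, each sequenced in 2 runs, with 3 libraries per group and the same 3 animals behind both groups. The members are the libraries of the vehicle arm labelled iTreg or Th17p. All cells came from the spleens of wild-type C57BL/6 mice, whose ages the labels do not give. Naive CD4 T cells, sorted by surface markers that include absence of CD44 and CD25, were activated on plate-bound antibodies against CD3 and CD28 (1 µg/ml each). The iTreg cultures received TGF-beta 1 at 2 ng/ml and no other listed cytokine. In Th17p cultures the cytokines were IL-23 (20 ng/ml), IL-1b (20 ng/ml) and IL-6 (25 ng/ml), without TGF-beta. After 68 h both groups were collected and sorted for live cells, with no sort for Foxp3 or IL-17 named in the labels. Each group is therefore a whole culture of differentiating cells, and fewer cells that express a gene cannot be told apart from less RNA of it per cell.

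Both fates start from the same naive cell and are decided by the cytokines present while the T cell receptor is engaged. TGF-beta acts through SMAD proteins and, with IL-2 and STAT5, turns on Foxp3, the transcription factor that defines regulatory T cells. IL-6 acts through STAT3, which drives IL-21 and the IL-23 receptor, and IL-1b and IL-23 strengthen the inflammatory form of the Th17 programme. The comparison asks how the RNA of the cultures differs when no polyamine inhibitor is present, which is the baseline on which the inhibitor arm of the series rests.

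Depth was between 8463917 and 10985230 estimated counts per library, the sum of both runs. On the first principal component of log2 CPM (counts scaled to library size) over these 6 libraries, which held 69.3% of the variance, iTreg libraries lay between 49.2 and 57.0 and Th17p libraries between -54.5 and -49.6. Of the defining markers, Cd3e was 145 ± 6.21 CPM in iTreg and 162 ± 8.04 CPM in Th17p cells, Foxp3 marked the iTreg libraries and Il17a and Il17f the Th17p libraries, as given below. Summed marker levels of other cells in iTreg and Th17p libraries were 14.2 to 17.5 against 28.1 to 36.03 CPM for 8 B cell genes, 0.590 to 3.34 against 0.735 to 1.65 CPM for 7 genes of NK and innate lymphoid cells, and 0.169 to 0.323 against 0.116 to 0.643 CPM for 7 genes of erythroid cells and platelets. The 5 CD8 T cell genes summed to 19.6 to 28.9 against 16.4 to 27.2 CPM, most of it Cd8b1, which was not called, while Cd8a (3.14 ± 0.564 against 0.63 ± 0.663 CPM) and Eomes (4.5 ± 3.76 against 0.385 ± 0.575 CPM) were higher in iTreg. The count of higher CD8 T cell genes was 1 without Th17p library 1 or 3 or animal 1, and 0 without animal 3. Markers of other helper fates differed more in level. The 8 Th1 genes summed to 122.5 to 287.3 against 821.5 to 925.1 CPM, with 1 of 6 tested members higher and 3 lower, and the 7 Th2 genes found to 283 to 361.8 against 133.8 to 175.7 CPM, with all 3 tested members (Gata3, Ccr4 and Ccr8) higher. The call of Ccr4 was lost without animal 1 (at 0.33). The 8 myeloid genes found summed to 89.0 to 101.4 against 113.4 to 131.7 CPM, nearly all of it Cst3, with Lyz1 and Lyz2 at 0 in all 6 libraries. The part of other cells in the results was not tested. The share of the TPM scale (transcript abundance per length) that falls on listed genes was 73.9% ± 1.36 in iTreg and 75.9% ± 1.40 in Th17p libraries (SD, n = 3; exact two-sided permutation test, p = 0.2, a design in which p cannot go below 0.1).

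The cultures differed in 3477 of 11526 genes tested, or 30.2%, by edgeR's quasi-likelihood test (p adjusted after Benjamini and Hochberg, threshold 0.05). Of these, 1667 genes (14.5% of all tested) were higher in iTreg and 1810 (15.7%) were lower. With a change of at least 2-fold, 552 genes (4.79%) were higher and 724 (6.28%) lower. Past 16-fold, 82 genes were higher and 127 lower, so that the extremes lay more often on the Th17p side. The 3 libraries of a group did not overlap with those of the other in 4986 genes (43.3%), 2427 of them higher (21.1%) and 2559 lower (22.2%) in iTreg. The median log2 fold change over all genes tested was 0.00 and the median absolute one 0.31. Without any scaling between libraries, 2174 genes were higher and 1477 lower, with a median of 0.09, so that small differences near 0 depend on the scaling. Below, changes are log2 fold changes of iTreg over Th17p ± standard error (SE), levels are mean CPM ± SD over n = 3 animals, and "higher" and "lower" are used only of genes called at that threshold. Counts of list members are set against the 14.5% higher and 15.7% lower calls over all genes tested.

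**Figure D1:**
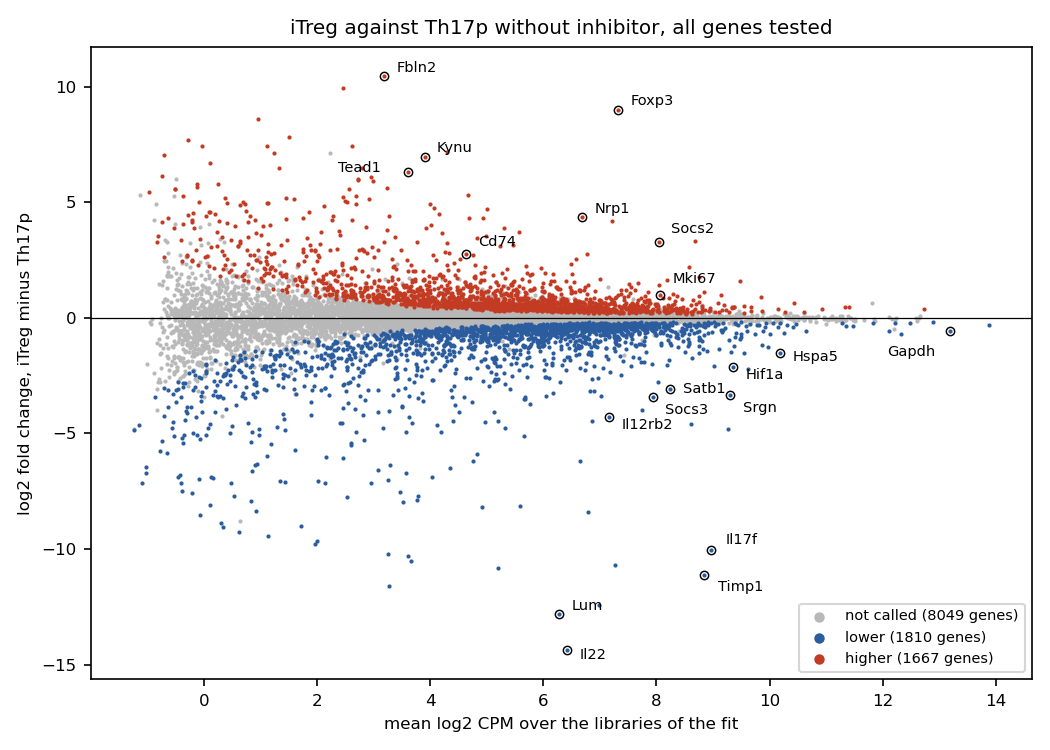
Each point is 1 of the 11526 genes tested, with its mean log2 CPM on the x axis and the log2 fold change of iTreg over Th17p on the y axis, coloured by call (1667 higher, 1810 lower, 8049 not called). The farthest points lie at the bottom, where Il22, Lum, Timp1 and Il17f sit below -10, and Foxp3 and Fbln2 stand out at the top. Where a group has few or no counts (Il22, Lum, Fbln2), the fitted value is no measure of the fold.

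Transcription factors that set T helper fates differed in 26 of 33 tested members, 10 higher and 16 lower in iTreg. Foxp3 (chrX:7573644-7595245, GRCm38) measured 516, 397 and 393 CPM in the iTreg libraries of animals 1, 2 and 3 and 0.881, 0 and 1.47 CPM in the Th17p libraries. Every iTreg library was thus far above every Th17p library, a log2 fold change of 9.01 ± 0.48 (adjusted p = 1.4e-08). Genes of the Ikaros family were higher as well. Ikzf2, which encodes Helios, measured 21, 35.3 and 42.5 CPM in iTreg and 7.82, 5.23 and 10.3 CPM in Th17p libraries (2.07 ± 0.35), and Ikzf4, which encodes Eos, rose by 1.12 ± 0.12 and Ikzf3, which encodes Aiolos, by 1.3 ± 0.16. Non-pathogenic Th17 cells (Th17n, grown with IL-6 and TGF-beta 1) held 11.4 CPM of Foxp3. They held 103 CPM of Ikzf4 and 41.2 CPM of Ikzf3, against 94.4 and 31.6 CPM in iTreg and 43.3 and 12.8 CPM in Th17p. Gata3, the factor that defines Th2 cells and is also used by regulatory T cells, measured 59.3, 82.9 and 104 CPM in iTreg and 19.7, 20.9 and 27.1 CPM in Th17p libraries, with no overlap (1.86 ± 0.23, adjusted p = 3.8e-06). The Th2 cytokine genes were low in both groups and were not tested. Il5 measured 0.323, 0.736 and 2.02 CPM in iTreg libraries and had no count in Th17p, at least 10.4-fold higher against 3 counts over the group. Il4 had no count in iTreg and 6 in Th17p libraries, and Il13 had 1 and 4.

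Factors of the Th17 programme were lower in iTreg. Rora, a nuclear receptor of Th17 cells, was 37.6 ± 8.78 against 62.7 ± 5.78 CPM (-0.73 ± 0.25), a call lost in 8 of 21 alternatives (at -0.75 to -0.56). Hif1a, the hypoxia factor that favours Th17 over Treg fate, measured 212, 289 and 330.0 CPM in iTreg and 1238, 1098 and 1288 CPM in Th17p libraries (-2.12 ± 0.13, adjusted p = 6.9e-10). Satb1, a chromatin organiser that Foxp3 is known to repress, measured 63, 70.2 and 84.8 CPM in iTreg and 662, 553 and 619 CPM in Th17p libraries (-3.07 ± 0.12). It was among the 6 genes with the smallest p in the lower direction. The AP-1 members Batf (-1.95 ± 0.13), Fosl2 (-2.77 ± 0.19) and Junb (-0.68 ± 0.08), their partner Irf4 (-0.98 ± 0.08), the inhibitor of DNA binding Id2 (-2.58 ± 0.16) and the follicular helper factor Bcl6 (-1.51 ± 0.23) were lower too. Naive-state factors were divided. Lef1 was 289 ± 22.2 CPM in iTreg and 257 ± 14.2 CPM in Th17p cells and was not called, while Bach2, a repressor of effector programmes, was lower in iTreg (-0.62 ± 0.09) and Foxp1 higher (0.97 ± 0.10). Lef1 was called higher with limma on log2(TPM + 1) and log2(TPM + 0.1), without scaling factors and without iTreg library 3 (at 0.25 to 0.29). Tbx21, the Th1 factor, was 12.3 ± 9.11 and 25.4 ± 5.81 CPM and was not called (-1.03 ± 0.40, adjusted p = 0.068). Blocked by animal in all libraries, Tbx21 passed in edgeR (-1.11, adjusted p = 0.02). Maf, a partner of the Th17 programme and driver of IL-10, was 0.703 ± 0.403 against 3.71 ± 2.08 CPM (-2.38 ± 0.67), a call lost without Th17p library 1, iTreg library 2, animal 1 or animal 2 (at -2.29 to -1.91), and Ahr, the aryl hydrocarbon receptor, 6.29 ± 1.51 against 3.0 ± 0.658 CPM (1.07 ± 0.31), a call lost in 4 of 21 alternatives (at 0.49 to 0.96). Prdm1, which encodes Blimp-1, averaged 0.406 CPM in iTreg and 0.282 CPM in Th17p cells and was not tested.

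**Figure D2:**
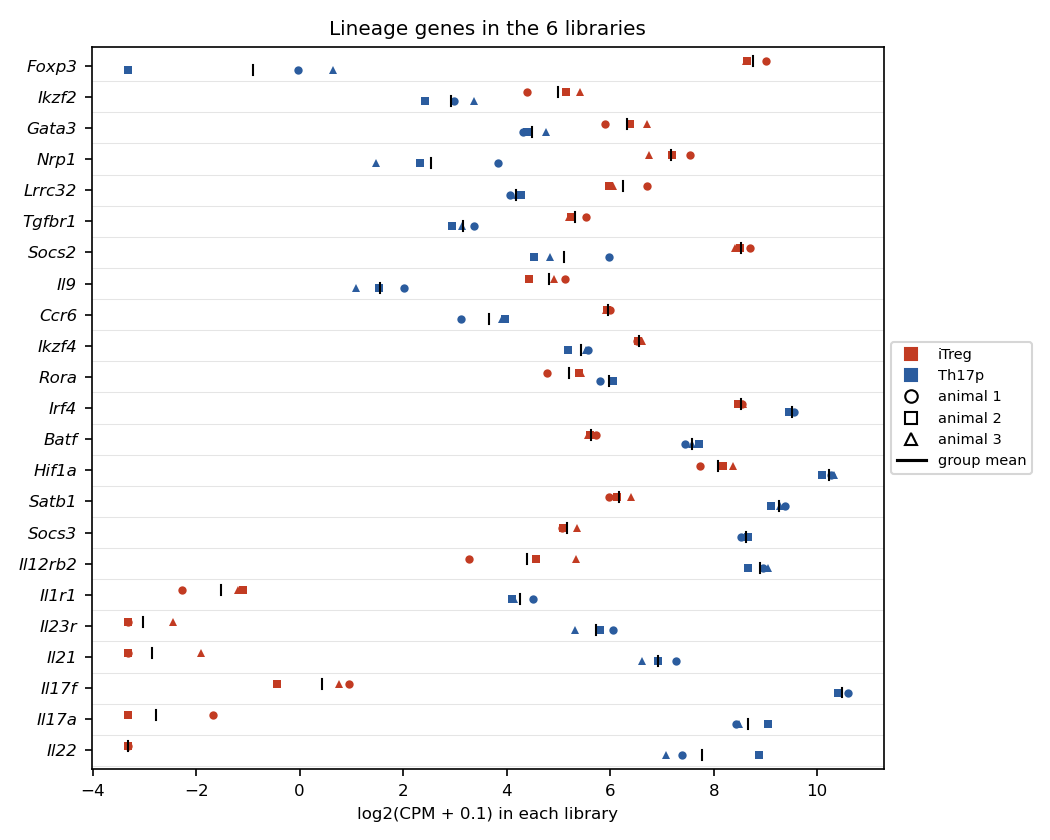
The x axis gives log2(CPM + 0.1) of 23 lineage, cytokine and receptor genes, 1 row per gene, in each of the 6 libraries (red iTreg, blue Th17p, the symbol marks the animal) with the group mean as a bar. The 3 libraries of a group lie apart from those of the other in every row, and libraries without a count sit at the left edge.

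Secreted cytokines went both ways, with 8 of 23 tested members higher and 11 lower. The count of higher members was 5 without Th17p library 2 or 3 or without animal 2 or 3. The Th17 cytokines were close to absent in iTreg. Il17f (chr1:20777146-20790617, minus strand) measured 1.83, 0.644 and 1.6 CPM in iTreg and 1539.8, 1350.0 and 1370.2 CPM in Th17p libraries (-10.03 ± 0.59). Il17a, its neighbour (chr1:20730905-20734496, plus strand), had 2 counts over the 3 iTreg libraries and 11618 over the Th17p libraries, a ratio of 6514 with a 95% counting interval of 1803 to 53793. Il22, a cytokine that acts on epithelia, had no count in iTreg and measured 168, 469 and 134 CPM in Th17p libraries, at least 2625-fold lower against a floor of 3 counts over the group. Its 3 Th17p libraries differed by over 3-fold among themselves, and its call held under every alternative tried. Iltifb, a close copy of Il22, had no count in iTreg and 290 in Th17p libraries, and reads may have been split between them. Il21, which sustains Th17 cells, had 2 counts in iTreg and 3499 in Th17p libraries, a ratio of 1962 with a counting interval of 543 to 16205. The change at the Il17 locus did not extend to every neighbour. Mcm3, the next gene after Il17f (chr1:20802968-20820312), which encodes a replication helicase subunit, was 534 ± 40.3 and 525 ± 52.8 CPM and was not called, and Paqr8 beyond it was lower (-1.49 ± 0.33).

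Other cytokines of the Th17p side were Il24 (0.71 ± 0.483 against 256 ± 69.2 CPM, -8.4 ± 0.43), Tgfb3 (0.917 ± 0.30 against 28.7 ± 8.45 CPM), which T cells make for themselves when IL-6 or IL-23 is present, and Il10, which had no count in iTreg and 45 counts over the Th17p libraries (at least 16.8-fold lower). Genes of the TNF superfamily, which were no list of their own, were called in both directions. Lta, the lymphotoxin subunit, measured 461, 531 and 555 CPM in iTreg and 180.4, 158 and 181 CPM in Th17p libraries (1.57 ± 0.11). Its membrane partner Ltb was 474 ± 146 against 154 ± 66.5 CPM (1.62 ± 0.28), and Tnf 82.1 ± 3.0 against 57.2 ± 3.92 CPM (0.52 ± 0.10). Tnfsf11, or RANKL, was 131 ± 63.4 against 22.6 ± 13.4 CPM (2.53 ± 0.89), a call lost in 12 of 21 alternatives (at 2.12 to 3.01), while Tnfsf14, or LIGHT, was lower (18.7 ± 1.31 against 41 ± 2.96 CPM, -1.13 ± 0.16). Tgfb1 itself was 3.77 ± 0.971 against 1.88 ± 0.125 CPM (0.99 ± 0.35), a call lost in 12 of 21 alternatives (at 0.77 to 1.11). Among these was the fit of the 6 libraries alone with the animal as a block in edgeR (0.97, adjusted p = 0.102). Ebi3, a subunit shared by IL-27 and IL-35, was higher (1.5 ± 0.20), while Il12a, the other subunit of IL-35, was not called, with 0.455 ± 0.419 CPM in iTreg and no count in Th17p. Blocked by animal in all libraries it passed in edgeR (adjusted p = 0.049), and no fold is given against a group without a count. Il9 measured 35, 21.5 and 30 CPM in iTreg and 3.96, 2.79 and 2.02 CPM in Th17p libraries (3.31 ± 0.35). Th17n cells held 190.3 ± 10.4 CPM of it. Il2 was not called, at 80.8, 47.5 and 87.5 CPM in iTreg and 68.3, 121 and 98.3 CPM in Th17p libraries, which overlapped. Ifng and Csf2, which are linked to pathogenic T cells in tissue, had 0.14 and 0.0843 CPM in iTreg and 0 and 0.0387 CPM in Th17p cells and did not pass the filter on low counts.

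Cytokine receptors differed in 21 of 29 tested members, 8 higher and 13 lower in iTreg, and 5 higher without animal 3. The receptors for IL-1b and IL-23, which Th17p cells were given, stood in the lower group. Il1r1 measured 0.108, 0.368 and 0.337 CPM in iTreg and 22.7, 17.1 and 17.5 CPM in Th17p libraries (-6.04 ± 0.68, adjusted p = 7.4e-07). Il23r had 1 count over the iTreg libraries and 1515 over the Th17p libraries, a ratio of 1699 with a 95% counting interval of 304 to 67144. Il12rb2, the receptor chain through which IL-12 drives Th1 cells, measured 9.58, 23.5 and 40.3 CPM in iTreg and 496, 407 and 530.3 CPM in Th17p libraries (-4.27 ± 0.40), and Il12rb1, its partner and that of Il23r, was 79.4 ± 26.1 against 148 ± 17.9 CPM (-0.90 ± 0.27), a call lost without Th17p library 2, Th17p library 3, iTreg library 1 or animal 2 (at -0.89 to -0.67). Il7r, the receptor of naive and memory cell survival (-2.96 ± 0.52), Il4ra (-1.35 ± 0.10), Il21r (-0.90 ± 0.10) and Il2rb (-0.61 ± 0.09) were lower as well. The receptors of the iTreg cytokine moved the other way. Tgfbr1, the signalling chain of the TGF-beta receptor, measured 46.3, 37.7 and 36.6 CPM in iTreg and 10.2, 7.55 and 8.73 CPM in Th17p libraries (2.18 ± 0.22), and Tgfbr2 was 107 ± 10.9 against 62 ± 11.2 CPM (0.79 ± 0.15). Il6st, the shared gp130 chain of the IL-6 family, was higher (1.56 ± 0.19), as was Il6ra (0.67 ± 0.19), a call lost without animal 3 (at 0.66). Th17p cells thus held less RNA for both chains of the IL-6 receptor than iTreg cells. Levels were 10.9 against 32.2 CPM for Il6st and 17.4 against 27.7 CPM for Il6ra. Th17n cells held 27 ± 4.28 CPM of Il6st and 34.3 ± 5.45 CPM of Il6ra. Both Th17p and Th17n cells had been given IL-6, and its part in these levels was not tested.

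The interleukin 1 receptor cluster on chromosome 1 did not move as a block. Il1r2, the decoy receptor (chr1:40074079-40125231), was lower (-1.55 ± 0.38), a call lost without animal 1 (at -1.41), Il1r1 (chr1:40225080-40317257) was lower by far more, Il1rl2 was not called (-0.44 ± 0.26), and Il18r1 (chr1:40465552-40500854), the receptor of IL-18, was higher, at 49.7 ± 11.2 against 17 ± 8.71 CPM (1.54 ± 0.35), a call lost without animal 2 (at 1.28). The costimulatory locus did. Cd28 (chr1:60716800-60773359) measured 109, 119 and 122 CPM in iTreg and 439, 352 and 392 CPM in Th17p libraries (-1.76 ± 0.11), its inhibitory neighbour Ctla4 (chr1:60887000-60915832) 189.6, 199 and 234 and 404, 455 and 479.5 CPM (-1.1 ± 0.16), and Icos (chr1:60977927-61000320) 157, 153 and 168 and 381, 307 and 373 CPM (-1.15 ± 0.09). All 3 were lower in each iTreg library than in any Th17p library. At the Foxp3 locus, Ppp1r3f was higher (2.95 ± 0.43). It lies on the other strand and its start overlaps that of Foxp3 (chrX:7557296-7574283). Since the strand of the libraries is not given in the sources used here, its reads cannot be told apart from those of Foxp3 there.

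Downstream of the cytokine receptors, 2 of 21 tested JAK-STAT members were higher and 8 lower in iTreg, with 4 higher without Th17p library 3 or with the 6 libraries blocked by animal. The feedback inhibitors split. Socs3, which STAT3 induces and which blocks IL-6 signalling, measured 33.5, 33.7 and 41.1 CPM in iTreg and 370.1, 404 and 407 CPM in Th17p libraries (-3.44 ± 0.11, adjusted p = 4.7e-15), the smallest p of the whole comparison in the lower direction. Socs2, a target of STAT5, measured 414, 363 and 339 CPM in iTreg and 62.5, 23.1 and 28.6 CPM in Th17p libraries (3.29 ± 0.31), while Cish, another STAT5 target, was 604 ± 32 against 537 ± 40.1 CPM and was not called. Cish was called higher with a filter of 1 CPM in 3 libraries, without scaling factors, with run 2 alone and without Th17p library 3 (at 0.19 to 0.26). Stat3 (-0.64 ± 0.09), Stat5a (-1.06 ± 0.11), Jak2 (-0.80 ± 0.11), Jak3 (-0.76 ± 0.08), the kinase Pim2 (-1.34 ± 0.12) and the phosphatase Ptpn2 (-1.15 ± 0.07) were lower. The TGF-beta list was mixed, with 6 of 18 higher and 5 lower, and 3 lower without iTreg library 1, animal 1 or animal 2. Pmepa1, a feedback inhibitor that TGF-beta induces, was 11.9 ± 2.54 CPM in iTreg against 4.02 ± 0.684 CPM in Th17p cells, with 11.9 ± 0.731 CPM in Th17n cells (1.55 ± 0.22 for iTreg over Th17p). Skil (0.59 ± 0.10), Id1 (1.87 ± 0.30) and Lrrc32 (2.1 ± 0.20), the cell surface anchor of latent TGF-beta, were higher too. Smad3 was lower (-1.68 ± 0.15) and so was Furin, a protease that matures TGF-beta (-1.17 ± 0.23), together with Tgif1 (-0.46 ± 0.13), a call lost without iTreg library 1, animal 1 or animal 2 (at -0.42 to -0.30) and Ltbp3 (-2.09 ± 0.69), a call lost in 7 of 21 alternatives (at -2.11 to -1.54). Smad7, the inhibitory SMAD, was 10.2 ± 2.71 against 8.04 ± 1.43 CPM and was not called.

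Genes of the Treg signature were called in 20 of 26 tested members, 14 higher and 6 lower, with a list median of 0.86 against 0.00 over all genes. Nrp1, a coreceptor of semaphorins and VEGF on Treg cells, measured 187, 147 and 108 CPM in iTreg and 14.2, 4.88 and 2.66 CPM in Th17p libraries (4.36 ± 0.44). The other higher members held the surface molecules Cd83 (2.34 ± 0.28), Ccr8 (1.88 ± 0.29) and Gpr83 (1.57 ± 0.31) and the zinc finger factor Plagl1 (2.3 ± 0.26). Nt5e, the ectoenzyme CD73 that makes adenosine, measured 79.4, 90.7 and 30.2 CPM in iTreg and 7.49, 5.11 and 1.1 CPM in Th17p libraries (3.9 ± 1.1), a call lost without Th17p library 2, Th17p library 3, animal 1 or animal 2 (at 3.43 to 4.35). Entpd1, or CD39, the enzyme that acts before it, was lower (-1.64 ± 0.39), a call lost without animal 2 (at -1.39). Several molecules that Treg cells use in suppression were at the higher level in Th17p cells. Ecm1, a secreted matrix protein, measured 6.89, 4.05 and 6.82 CPM in iTreg and 224, 63.8 and 98.7 CPM in Th17p libraries (-4.44 ± 0.52), and Tigit, a coinhibitory receptor, 9.68, 16 and 27.1 and 109.8, 112 and 135 CPM (-2.74 ± 0.33). Il2ra, the high-affinity IL-2 receptor chain, was 1158 ± 171 CPM in iTreg and 1505 ± 47.9 CPM in Th17p cells (-0.38 ± 0.10), a call lost without iTreg library 3, animal 2 or animal 3 (at -0.30 to -0.27). Tnfrsf4, which encodes OX40, was not called (-0.26 ± 0.14). Blocked by animal in the 6 libraries alone, Tnfrsf4 passed in edgeR (-0.27, adjusted p = 0.042).

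Coinhibitory receptors and ligands were lower in iTreg in 8 of 11 tested members and higher in none. Cd200 was 196 ± 47.1 against 822 ± 50.4 CPM (-2.07 ± 0.16), Btla 117 ± 15.5 against 275 ± 38.1 CPM (-1.24 ± 0.11), and Vsir, which encodes VISTA and stands in the table under an older name, 60 ± 3.59 against 119.5 ± 18.4 CPM (-0.99 ± 0.11). The exceptions were Pdcd1, or PD-1 (56.5 ± 5.55 against 62 ± 3.87 CPM), Cd274, or PD-L1 (50.9 ± 3.84 against 54.8 ± 5.61 CPM), and Cd160, none of them called. Of 15 tested costimulatory genes, 2 were higher and 6 lower, with 1 higher without Th17p library 2 or animal 2 and 4 in the 6 libraries blocked by animal. Slamf1 (-1.85 ± 0.15) was lower, and Tnfrsf1b, a TNF receptor of Treg cells, higher (0.82 ± 0.10), as was Cd27 (0.42 ± 0.16), a call lost in 8 of 21 alternatives (at 0.31 to 0.42).

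The Th17 signature was lower in 17 of 22 tested members, higher in 4, and the list of genes tied to pathogenic Th17 cells lower in 12 of 18 and higher in 2. The 8 genes listed for non-pathogenic Th17 cells went both ways, 4 higher and 3 lower, with a median of 0.99. The count of higher members of the Th17 signature was 2 without animal 3, and that of higher pathogenic members 0 without animal 2 and 1 without Th17p library 1 or 2 or iTreg library 2 or 3. Without animal 1 or animal 2, 1 non-pathogenic member was lower. The higher members of the Th17 signature were Il6ra and Tnfsf11, given above, Ccr6, a homing receptor of Th17 cells, at 64, 61.4 and 60.7 CPM in iTreg and 8.59, 15.5 and 14.9 CPM in Th17p libraries (2.25 ± 0.20), and Ctsw, a protease (44.9 ± 27.5 against 3.36 ± 0.765 CPM). Ccr6 and Ctsw were also above the Th17p level in Th17n cells, at 42.8 ± 11 and 47.4 ± 6.45 CPM. The higher pathogenic members were the chemokine Ccl3 (1.39 ± 0.44), a call lost in 6 of 21 alternatives (at 1.06 to 1.54) and Lrmp (0.51 ± 0.13), a call lost without animal 2 (at 0.37). Lower pathogenic members included Lgals3, galectin 3 (-3.43 ± 0.27), and Cxcl3, a neutrophil chemokine (-4.94 ± 0.87). Homing genes as a whole were divided, with 8 of 32 higher and 10 lower. Ccr2 (0.232 ± 0.314 against 6.08 ± 2.43 CPM) and Cxcr3 (16.4 ± 3.12 against 57.2 ± 6.9 CPM), which guide cells to inflamed tissue, were lower. The integrin genes Itga4 (1.55 ± 0.17) and Itgb2 (0.57 ± 0.10) were higher.

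**Figure D3:**
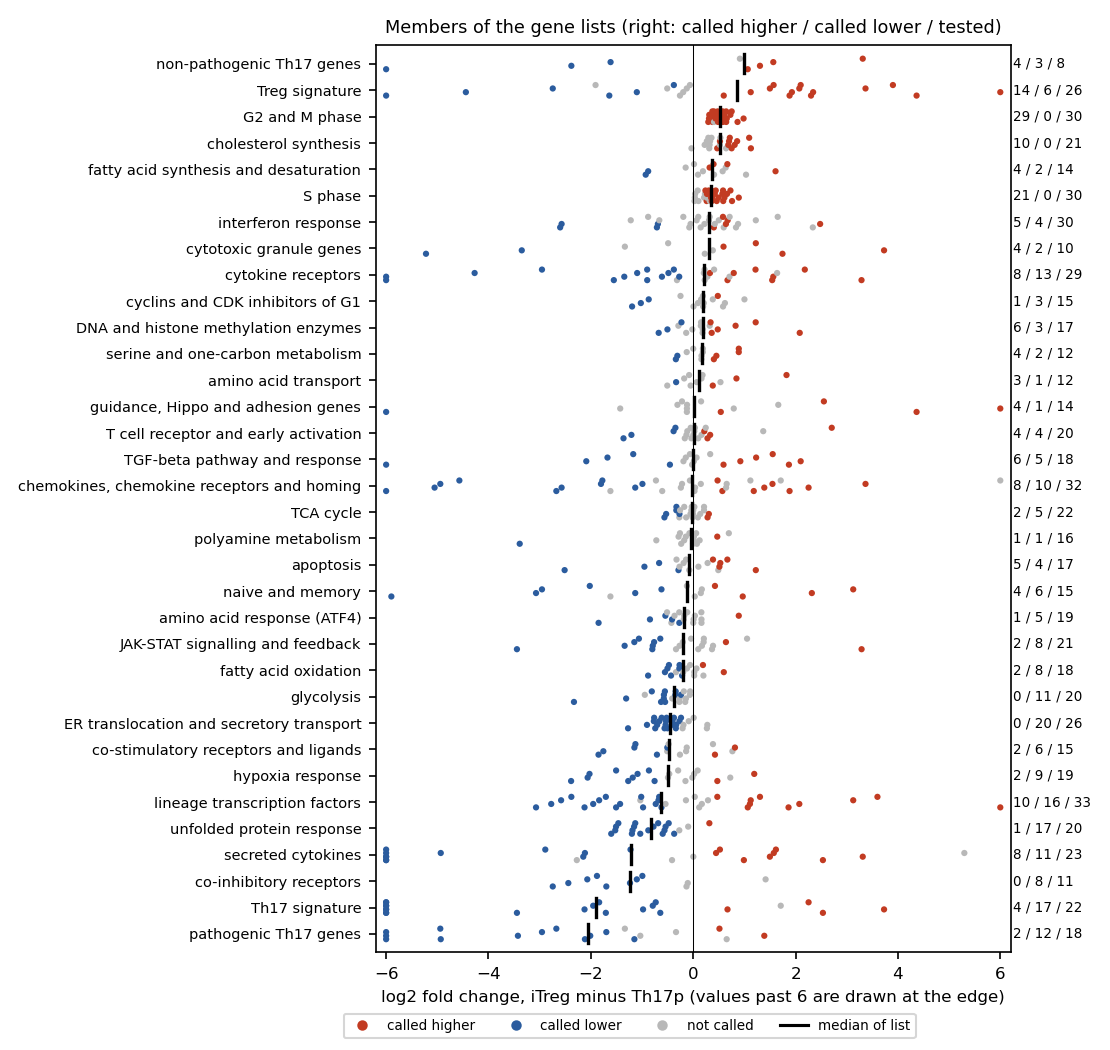
Each dot is a tested member of a gene list, placed by its log2 fold change of iTreg over Th17p and coloured by call, with the list's median as a bar and the numbers called higher, called lower and tested at the right. Dots of the G2 and M phase list stand to the right of 0, 29 of 30 called, and those of the unfolded protein response to the left, 17 of 20 called.

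Beyond lineage genes, genes of protein folding in the endoplasmic reticulum (ER) were lower in iTreg. Of 20 genes of the unfolded protein response, 17 were lower in iTreg and 1 higher, with a median of -0.83. This response adjusts the folding capacity of the ER to the load of secreted protein and runs through the sensors ATF6, IRE1 (Ern1) and PERK. Hspa5, the chaperone BiP, measured 671, 754 and 866 CPM in iTreg and 2087, 2199 and 2229 CPM in Th17p libraries (-1.51 ± 0.08, adjusted p = 1.4e-11). Hsp90b1, the chaperone GRP94, measured 658, 669.5 and 706 and 1508, 1501 and 1522 CPM (-1.16 ± 0.07). For both genes the groups lay apart by over 2-fold. The sensors Atf6 (20.3, 28.8 and 32.6 against 76.6, 76.1 and 82.9 CPM, -1.52 ± 0.13) and Ern1 (-1.6 ± 0.36) were lower with their targets. Disulfide isomerase Pdia6 (-1.2 ± 0.07), the secreted factors Creld2 (-1.46 ± 0.13) and Manf (-1.19 ± 0.09), and Hyou1 (-1.13 ± 0.09) and Sdf2l1 (-1.03 ± 0.10), which work with BiP, changed by 2-fold or more. Xbp1, the factor that IRE1 activates by splicing, was the 1 higher member (0.32 ± 0.12), its libraries overlapped, and it kept its call in 13 of 21 alternatives. The table counts genes, so that spliced and unspliced Xbp1 are not separated. Th17n cells had IL-6 and TGF-beta 1 but no IL-1b or IL-23. They held 810.2 ± 55.2 CPM of Hspa5 and 753 ± 5.38 CPM of Hsp90b1. These were near the iTreg levels of 763 ± 98 and 678 ± 24.9 CPM. Which cytokine bears on these levels was not tested.

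Promoters of such genes are known to carry the ER stress response element, to which ATF6 binds together with NF-Y. It was searched as CCAAT and CCACG separated by 9 bases, on both strands, in RefSeq promoter windows of 300 bases (250 before to 50 after the start, GRCm38.p6). Of 17 list members with a window, 7 held it (41.2%), against 16 of 8832 tested genes with a window (0.181%). All 7 were lower in iTreg (Hspa5, Hsp90b1, Pdia6, Calr, Canx, Dnajc3 and Creld2). Outside the list it was found in 9 genes. Of these, 3 were lower, namely Derl3, a component of ER-associated degradation (-3.05 ± 0.42), Syvn1, its ubiquitin ligase (-0.44 ± 0.12), and Alg12, a mannosyltransferase of N-glycan synthesis (-0.51 ± 0.19), 1 was higher (Adcy3, 1.34 ± 0.38) and 5 were not called. Not all of these calls held, that of Alg12 lost in 14 of 21 alternatives (at -0.56 to -0.31), that of Adcy3 lost without Th17p library 1, Th17p library 2, animal 1 or animal 2 (at 1.08 to 1.24), that of Syvn1 lost without animal 1 or animal 2 (at -0.41 to -0.35). Genes with the element were thus lower in 10 of 16 cases, or 62.5%, against 15.9% of all tested genes with a window, which is a count of matches and not of bound sites. The 250 bases before the start of Hspa5 and shorter stretches around the element of 5 further genes are given to show its spacing and its 2 orientations, with the element's fixed bases in capitals.
Hspa5, chr2:34771840-34772089, plus strand: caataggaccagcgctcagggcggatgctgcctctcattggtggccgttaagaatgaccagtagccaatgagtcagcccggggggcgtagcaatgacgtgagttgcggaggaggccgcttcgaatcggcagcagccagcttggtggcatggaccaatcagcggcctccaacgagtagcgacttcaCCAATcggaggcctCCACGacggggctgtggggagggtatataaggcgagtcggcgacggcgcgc
Hsp90b1, chr10:86705521-86705668, minus strand: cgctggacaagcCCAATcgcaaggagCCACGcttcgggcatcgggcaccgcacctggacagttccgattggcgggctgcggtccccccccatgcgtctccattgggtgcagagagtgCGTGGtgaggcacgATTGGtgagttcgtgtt
Pdia6, chr12:17266479-17266521, plus strand: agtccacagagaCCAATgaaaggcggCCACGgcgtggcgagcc
Creld2, chr15:88819508-88819550, plus strand: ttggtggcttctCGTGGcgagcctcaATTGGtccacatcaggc
Calr, chr8:84847063-84847105, minus strand: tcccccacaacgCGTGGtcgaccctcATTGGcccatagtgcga
Derl3, chr10:75893230-75893272, plus strand: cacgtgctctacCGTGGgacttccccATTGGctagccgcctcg
All are written 5′ to 3′ on the strand of the gene. In Hspa5 and Pdia6 the element reads in the direction of the gene, with CCAAT first, in Creld2, Calr and Derl3 it lies on the other strand, and Hsp90b1 holds 1 in each direction.

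The next steps of secretion followed. Of 26 genes of ER translocation and vesicle transport, 20 were lower in iTreg and none higher (1 in both fits blocked by animal), by smaller amounts than the chaperones, with a median of -0.46. The translocon subunit Sec61a1 was 426 ± 16.9 against 617 ± 17.1 CPM (-0.53 ± 0.07). The translocon-associated Ssr3 (-0.90 ± 0.08), the signal peptidase subunit Spcs3 (-0.76 ± 0.09), the retrieval receptor Kdelr2 (-0.77 ± 0.09), the coat protein Sec24d (-1.27 ± 0.15) and the oligosaccharyltransferase subunit Stt3a (-0.56 ± 0.07) were among them. In Th17n cells Ssr3 was 540 CPM, Kdelr2 220 CPM and Sec24d 44.8 CPM, near the Th17p levels of 585, 229 and 50.9 CPM. Spcs3 was 309 CPM there, between iTreg (219 CPM) and Th17p (372 CPM). The count of lower members was between 15 and 21 over the alternatives, and that of the unfolded protein response 17 or 18.

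Genes of DNA replication and mitosis moved the other way. Of 30 genes of the G2 and M phase, 29 were higher in iTreg and none lower, and of 30 S phase genes 21 were higher and none lower, with medians of 0.52 and 0.35. The shift was under 2-fold for every tested member of the G2 and M list. Mki67, the proliferation antigen, measured 417, 369.9 and 355 CPM in iTreg and 217, 174 and 187 CPM in Th17p libraries (0.98 ± 0.10, adjusted p = 8.6e-08), the largest change of the G2 and M list. Cdc20, the activator of the anaphase-promoting complex, was 237 ± 20.4 against 150.2 ± 10.1 CPM (0.66 ± 0.08), and Ccnb2, cyclin B2, 233, 189 and 191 against 163, 129.9 and 146 CPM (0.48 ± 0.11). In S phase, Tyms, thymidylate synthase, rose by 0.89 ± 0.11 and the replication protein Rpa2 by 0.76 ± 0.08. The S phase count fell to 13 without the iTreg library of animal 1, the lowest count over the alternatives, and the G2 and M count to 23 without animal 2. Th17n cells had 249.7 ± 7.12 CPM of Mki67 and 199 ± 10.3 CPM of Cdc20. In the list of G1 cyclins, their kinases and kinase inhibitors, 1 of 15 tested members was higher and 3 were lower, with 11 not called. Over all genes tested, 14.5% were higher and 15.7% lower. The cyclin Ccnd2 was higher (0.48 ± 0.10). The kinase Cdk6 (-1.19 ± 0.10) and the inhibitors Cdkn2d (-1.02 ± 0.07) and Cdkn1a (-0.87 ± 0.22) were lower. The call of Cdkn1a was lost without animal 1 (at -0.83). Myc was 532 ± 19.1 against 499 ± 35.3 CPM and was not called.

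**Figure D4:**
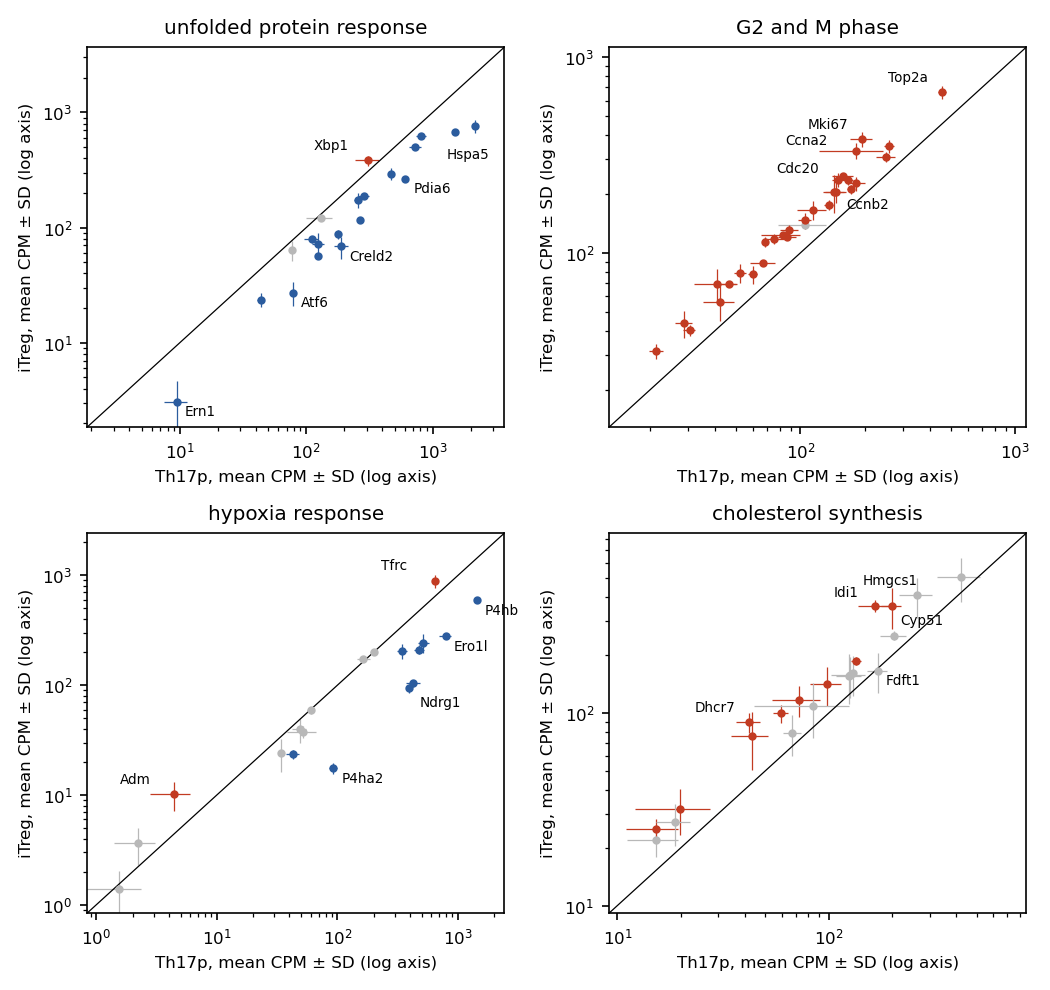
Each panel plots the tested members of 1 list, with mean CPM ± SD of 3 animals in Th17p on the x axis and in iTreg on the y axis (log axes) and a line of equal level, red for genes called higher in iTreg, blue for lower and grey for not called. The unfolded protein response lies below the line apart from Xbp1, and G2 and M genes run along its upper side.

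Mitotic genes are known to share 2 promoter elements, the NF-Y box (CCAAT) and the cell cycle homology region (CHR), searched as TTTGAA on both strands in the same windows. The CHR was found in 19 of 25 G2 and M members with a window (76.0%), against 1252 of 8832 tested genes (14.2%), and CCAAT in 19 of 25, against 3843 (43.5%). Across all tested genes, those with both in 1 window were higher in 120 of 525 cases (22.9%) and lower in 61 (11.6%), where all genes with a window were higher in 14.1% and lower in 15.9%. These 525 genes include members of the G2 and M list. The windows of Ccnb2 and Cdc20 are printed up to 12 bases after the start and up to the start, with both elements in capitals, since they show the elements side by side.
Ccnb2, chr9:70421543-70421804, minus strand: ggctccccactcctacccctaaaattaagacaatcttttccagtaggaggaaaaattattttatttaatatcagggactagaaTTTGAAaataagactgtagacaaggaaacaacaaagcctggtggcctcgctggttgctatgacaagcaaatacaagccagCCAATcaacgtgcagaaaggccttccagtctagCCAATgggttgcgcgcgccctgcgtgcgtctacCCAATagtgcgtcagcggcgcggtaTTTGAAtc
Cdc20, chr4:118437344-118437436, minus strand: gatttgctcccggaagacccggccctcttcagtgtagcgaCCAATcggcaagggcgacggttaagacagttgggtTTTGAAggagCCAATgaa
In Ccnb2, 3 CCAAT boxes start 87, 54 and 21 bases before the start, and in Cdc20 a CHR stands between 2 CCAAT boxes. For the E2F form TTTGGCGC, 6 of 25 S phase members with a window held it (24.0%) against 1.14% of tested genes, and for the form TTTCCCGC 3 of 25 (12%) against 2.43%.

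Further elements were searched in the same windows. The STAT form TTCCNGGAA was in 0 of 18 windows of the Th17 signature and 1 of 18 of the JAK-STAT list (5.56%), against 1.61% of tested genes. The AP-1 form TGANTCA was in 1 of 18 of the Th17 signature (5.56%) and 5 of 19 of the cytokines (26.3%), against 6.06%, and the SMAD box CAGACA in 5 of 7 of the TGF-beta list (71.4%), against 18.5%. Only 7 of the 18 tested TGF-beta members had a window, 4 of them lower in iTreg and none higher. Over all tested genes with the SMAD box, 14.9% were higher and 16.2% lower. No match says only that these letters are not in the window.

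**Figure D5:**
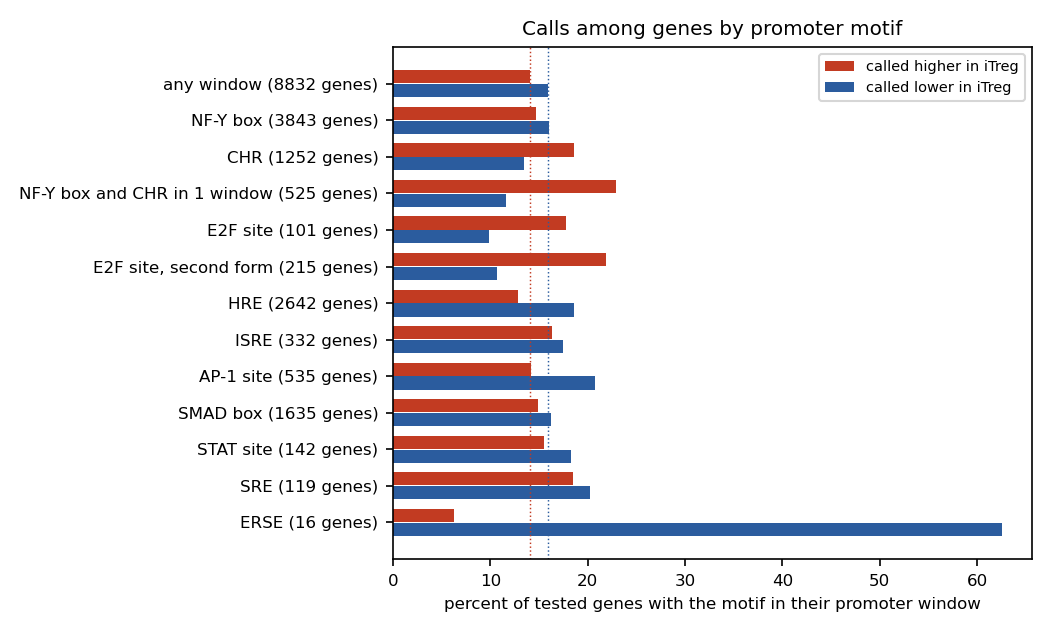
Bars give the percent of tested genes with a motif in their promoter window that were called higher (red) or lower (blue) in iTreg, and dotted lines the same over all 8832 tested genes with a window. Genes with the ER stress element stand out at 62.5% lower, and genes with an NF-Y box and a CHR reach 22.9% higher. Both sets include members of the gene lists given above. Outside the unfolded protein response list, 3 of 9 genes with the ER stress element were lower.

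Glucose metabolism was lower in iTreg in 11 of 20 tested genes and higher in none, with a median of -0.38. The members named here act in uptake, entry and the later steps of the pathway. Slc2a3, the glucose transporter GLUT3, measured 71.1, 64.5 and 81 CPM in iTreg and 377, 321 and 392 CPM in Th17p libraries (-2.33 ± 0.27), and Hk2, hexokinase 2, was 73.4 ± 7.9 against 182 ± 6.45 CPM (-1.31 ± 0.19). Gapdh measured 8468, 8136 and 8073 CPM in iTreg and 12452, 11625 and 12027 CPM in Th17p libraries (-0.55 ± 0.08), Pkm, pyruvate kinase, was 4300.0 ± 294 against 6403 ± 448 CPM (-0.57 ± 0.11), and Pgam1 1324 ± 195 against 1969 ± 23.6 CPM (-0.57 ± 0.09). Eno1 was not called (-0.14 ± 0.10). Slc2a1, the transporter GLUT1 (-0.55 ± 0.19), and Ldha, lactate dehydrogenase (-0.24 ± 0.08), were called but lost the call in 13 and 11 of 21 alternatives. For Slc2a1 these included edgeR with the animal as a block in all libraries (-0.55, adjusted p = 0.059). The count for the list was between 7 (log2 TPM with a pseudocount of 0.1, and without Th17p library 1 or 3, iTreg library 3 or animal 2) and 13.

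Hypoxia response genes, many of them targets of HIF-1, were lower in 9 of 19 tested members and higher in 2, or 1 without animal 2. P4ha2, a collagen prolyl hydroxylase, measured 17, 15.9 and 19.8 CPM in iTreg and 99.8, 87.2 and 88.9 CPM in Th17p libraries (-2.39 ± 0.25). Egln3, an oxygen sensor that acts on HIF-1 (-2.03 ± 0.25), Ndrg1 (-2.06 ± 0.27), the ER oxidase Ero1l (-1.51 ± 0.15), the isomerase P4hb (-1.27 ± 0.07) and the mitophagy receptor Bnip3l (-1.18 ± 0.14) changed by over 2-fold. The 2 higher members were Tfrc, the transferrin receptor (0.47 ± 0.11), and Adm, a peptide hormone (1.19 ± 0.31), a call lost without animal 2 (at 0.71). The other 8 were not called. The core hypoxia response element ACGTG was found in 13 of 16 members with a window (81.2%), against 29.9% of tested genes, on either strand. It stood in 6 of 6 windows of lower members, 1 of 2 of higher members and 6 of 8 of members not called. Over all tested genes with it, 12.8% were higher and 18.6% lower, against 14.1% and 15.9% of all genes with a window. In glucose metabolism 13 of 19 windows held it (68.4%).

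Lipid and one-carbon lists differed in direction. Of 21 genes of cholesterol synthesis, 10 were higher in iTreg and none lower, with a median of 0.52. Idi1, isopentenyl diphosphate isomerase, measured 389, 334 and 360.4 CPM in iTreg and 191, 136 and 168 CPM in Th17p libraries (1.13 ± 0.16), and Dhcr7, the last enzyme of the pathway, was 89.6 ± 10.4 against 42 ± 5.4 CPM (1.09 ± 0.17). Srebf2, the factor that controls the pathway, was higher (0.47 ± 0.10). The count depends on the fit. It was 18 of the list in the 6 libraries alone with the animal as a block, 3 without animal 2, 4 without iTreg library 1, and 6 and 5 without Th17p library 2 and 3. The sterol element, searched as TCACNCCAC, stood in 1 of 15 windows of the list (6.67%, against 1.35% of tested genes) and in none of the 10 of higher members. Fatty acid synthesis had 4 of 14 higher and 2 lower, with 8 higher in the 6 libraries blocked by animal and 7 without animal 3. Scd1, a desaturase, was 211 ± 28.1 against 69.2 ± 8.48 CPM (1.61 ± 0.40), a call lost without animal 1 or animal 2 (at 1.59 to 1.67). In the serine pathway Phgdh, its first enzyme, measured 1266, 1309 and 1262 CPM in iTreg and 630.4, 718 and 722 CPM in Th17p libraries (0.89 ± 0.09), and the list as a whole had 4 of 12 higher and 2 lower, or 1 lower without Th17p library 1 or 3, iTreg library 2, animal 2 or animal 3. Of 18 fatty acid oxidation genes, 2 were higher and 8 lower, led by Acadl (-0.88 ± 0.13), and the count of lower members was 3 to 5 without any 1 animal and 4 without Th17p library 1 or 3. The higher members numbered 0 or 1 in the 6 libraries blocked by animal and without any library or animal other than iTreg library 3. The TCA cycle had 2 of 22 higher (0 without animal 3, 1 without animal 2 or without either library of it) and 5 lower, with a median of -0.03, among them Acly, which carries citrate carbon into lipid (-0.56 ± 0.11), and Suclg1 (-0.53 ± 0.08).

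Polyamine genes, the target of the inhibitor used elsewhere in the series, differed in 2 of 16 tested members, 1 higher and 1 lower. The lower count was 3 in both fits blocked by animal and without Th17p library 1, and 2 without iTreg library 1, animal 1 or animal 2, where the higher count was 0. Smox, spermine oxidase, measured 33.5, 33.4 and 36.4 CPM in iTreg and 279, 398 and 406 CPM in Th17p libraries (-3.39 ± 0.24, adjusted p = 6.2e-08), and it was 215 ± 17.3 CPM in Th17n cells. Atp13a3, a polyamine transporter, was higher (0.47 ± 0.13), a call lost without iTreg library 1, animal 1 or animal 2 (at 0.33 to 0.51). Odc1, the inhibitor's target, was 163 ± 10.8 CPM in iTreg and 198 ± 39.1 CPM in Th17p cells and was not called (-0.29 ± 0.13, adjusted p = 0.12), nor were Srm (0.70 ± 0.65) and Amd1 (-0.14 ± 0.08). Odc1 was called by edgeR with the animal as a block in all libraries (-0.28, adjusted p = 0.049).

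Enzymes of DNA and histone methylation included 6 of 17 higher and 3 lower, or 1 lower without Th17p library 2 or 3, iTreg library 1 or 2, animal 1 or animal 2. Both de novo DNA methyltransferases were higher. Dnmt3a measured 97.2, 102 and 106 CPM in iTreg and 44.5, 46.4 and 40.2 CPM in Th17p libraries (1.22 ± 0.11) and Dnmt3b 11.7, 15.4 and 20.2 and 3.63, 4.77 and 2.85 CPM (2.08 ± 0.34). Ezh2, the polycomb methyltransferase (0.83 ± 0.14), and Dnmt1, which copies methylation at replication (0.48 ± 0.09), were higher, and Tet2, which removes it, was lower (-0.67 ± 0.13). Apoptosis genes were called in both directions, with 5 of 17 tested members higher and 4 lower and a median of -0.08. The higher count was 2 without animal 3. The death factor Bcl2l11 (BIM) measured 7.42, 9.38 and 7.16 CPM in iTreg and 51, 32.7 and 53.2 CPM in Th17p libraries (-2.51 ± 0.27). Its antagonist Bcl2 was lower too (-0.95 ± 0.10). Interferon genes had no common direction, with 5 of 30 higher and 4 lower. Gbp2 measured 65.1, 53.3 and 94.3 CPM in iTreg and 615, 246 and 430.4 CPM in Th17p libraries (-2.6 ± 0.29), while Isg20 was higher (2.48 ± 0.42). In the 6 libraries alone, blocked by animal, 13 of these genes were higher and 7 lower, and 3 were higher without iTreg library 3 and 2 lower without Th17p library 2 or 3, iTreg library 1, animal 1 or animal 2. The interferon-stimulated response element, searched on both strands, stood in 14 of 22 windows of the list (63.6%) against 3.76% of tested genes. Of the T cell receptor list, 4 of 20 were higher and 4 lower, with 1 lower without animal 1, 2 lower without animal 2, and 2 higher without Th17p library 1, iTreg library 2 or animal 3. Nr4a3, an early gene of receptor signalling, was 58.3 ± 18.1 against 8.96 ± 2.22 CPM (2.71 ± 0.27), and Cd5, a damper of the receptor, lower (-1.36 ± 0.08).

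Of the remaining lists, cytotoxic granule genes were higher in 4 of 10 members and lower in 2, and 4 were lower with the animal as a block in all libraries and without Th17p library 1, iTreg library 3 or animal 3. Perforin (Prf1) had 2 counts in iTreg and 81 in Th17p libraries, a ratio of 45.4 with a counting interval of 12.2 to 381. Naive and memory genes were higher in 4 of 15 and lower in 6. Ly6c1, a surface antigen with close relatives between which reads may have been split, was 2.01 ± 2.16 against 123 ± 53.8 CPM (-5.9 ± 0.80), S1pr1, the receptor for exit from lymph nodes, was lower (-1.13 ± 0.20) and Klf3 higher (2.32 ± 0.54). Amino acid transporters were higher in 3 of 12 and lower in 1 (none without Th17p library 2 or 3, iTreg library 2 or animal 2, or in the 6 libraries blocked by animal), with Slc7a5, which carries large neutral amino acids, at 44 ± 2.64 against 24.5 ± 0.92 CPM (0.84 ± 0.15) and Slc43a1 at 8.73 ± 1.18 against 2.46 ± 0.144 CPM (1.82 ± 0.27). The amino acid response had 1 of 19 higher and 5 lower (3 without Th17p library 2 or 3, iTreg library 1, animal 1 or animal 2), among them the stress factor Ddit3, or CHOP (-0.85 ± 0.17). Guidance and Hippo genes had 4 of 14 higher and 1 lower (2 in the 6 libraries blocked by animal), among them the semaphorin receptor Plxnd1 (20.2 ± 3.4 against 3.45 ± 0.717 CPM, 2.55 ± 0.35). Each of these counts rests on 1 to 6 members.

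The largest changes among genes with a mean log2 CPM of at least 2 also fell on genes not named for either lineage. Higher in iTreg were Fbln2, an extracellular matrix protein, with 17.1 ± 1.89 CPM and no count in Th17p (at least 162-fold higher against 3 counts over the group), Kynu, kynureninase of tryptophan breakdown (32.2 ± 5.89 against 0.231 ± 0.23 CPM, 6.97 ± 0.46), Scin, an actin-severing protein (5.97 ± 0.45), and Tead1, a transcription factor of the Hippo pathway (6.3 ± 0.56). Serpina3g (7.45 ± 0.68) and Apol9b (6.08 ± 0.89) were among them too, both from families of closely alike genes between which reads may have been split. Nanp was called, with 25, 3.59 and 7.25 CPM in iTreg and no count in Th17p libraries (at least 106-fold higher), a call lost in 8 of 21 alternatives. Lower in iTreg were Lum, the matrix proteoglycan lumican (0.108, 0 and 0 CPM in iTreg and 277, 358 and 299 CPM in Th17p libraries), Enpp2, autotaxin (0.0894 ± 0.092 against 189 ± 32.8 CPM), Timp1, a metalloprotease inhibitor, the serpin Serpinb5 (0.0281 ± 0.0486 against 63.6 ± 21.1 CPM) and the cadherin Cdh17 (no count in iTreg, 37.1 ± 12.6 CPM in Th17p). Th17n cells were between the groups for Lum (3.89 ± 0.431 CPM), Enpp2 (15.8 ± 5.84 CPM), Cdh17 (15.7 ± 1.26 CPM) and Serpinb5 (3.73 CPM). Timp1 went past both groups there, at 1166 CPM, against 849 ± 247 CPM in Th17p and 0.373 ± 0.168 CPM in iTreg.

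Lum and Enpp2 are better known from connective tissue, and so markers of other tissues are given beside them, from lists added after their values were seen. Of 10 fibroblast genes, 2 were tested, namely Lum and Dcn, a related proteoglycan with no count in iTreg and 4.42 ± 2.68 CPM in Th17p cells, not called by DESeq2. Col3a1, Postn and Col6a1 were at 0 in all 6 libraries, and Col1a1, Col1a2, Pdgfra, Pdgfrb and Fbn1 were at most 1.09 CPM on average in either group. The list summed to 0.552 to 2.48 CPM in iTreg and 286.7 to 362.7 CPM in Th17p libraries, nearly all of it Lum. Of 6 epithelial genes, 3 were at 0 and the sum was at most 2.36 CPM in any library, and 6 endothelial genes summed to 13.5 to 24.6 against 25.5 to 39.96 CPM, nearly all of it Pecam1, which T cells also express. Their part in the levels of Lum and Enpp2 was not tested.

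Per transcript length, on the TPM scale, genes among those that gained most in iTreg were Ifi27l2a (4849 ± 305 TPM in iTreg against 2143 ± 90.2 TPM in Th17p), an interferon-inducible gene, that of Ifi27l2a lost in 8 of 21 alternatives (at 1.09 to 1.22), Actb (4024 ± 475 against 2940.3 ± 333 TPM), Cox17, a copper chaperone of cytochrome oxidase (1200.0 ± 202 against 562 ± 13.2 TPM), and the tubulin Tuba1b (1611 ± 237 against 1124 ± 74.6 TPM). Those that lost most were Gapdh (7681 ± 183 against 10815 ± 746 TPM), Ly6a, or Sca-1 (83.8 ± 74.3 against 2259 ± 262 TPM), Srgn, the granule proteoglycan serglycin (165 ± 37 against 1622 ± 180.3 TPM), and Il17f (1.35 ± 0.626 against 1348 ± 94.7 TPM). Srgn measured 109.9, 112 and 154 CPM in iTreg and 1212, 1289.9 and 1338 CPM in Th17p libraries (-3.35 ± 0.18), while of the granule proteases it holds, Gzmb was 50.1 ± 39.5 against 127 ± 33.7 CPM and was not called (-1.34 ± 0.50, adjusted p = 0.062), and Ctsc was higher (0.59 ± 0.09). Gzmb was called by edgeR with the animal as a block in all libraries (-1.49, adjusted p = 0.018). By p, the leading higher genes were Sh3bgrl (1.5 ± 0.08), Cd74, the invariant chain (2.75 ± 0.17), Fsd1l (3.99 ± 0.25), Syngr2 (1.03 ± 0.07) and Lsp1 (1.41 ± 0.10), and the leading lower genes after Socs3 were Emb (-1.73 ± 0.07), Satb1, Rnh1, a ribonuclease inhibitor (-1.84 ± 0.08), and LILRB4, an inhibitory receptor (-6.49 ± 0.30).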

How the data were processed

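RNA of sorted live cells was sequenced as 75-base read pairs in 2 runs per library. Per the submitters' processing notes, Bowtie2 and RSEM were used with GRCm38.p3. No version, annotation or strand setting is stated in the sources used here. The deposited tables hold estimated counts and TPM values per gene, made by the authors for 36 samples and 20817 genes. Of the deposited estimated counts, 12.17% were not whole. The counts of both runs were summed per library and rounded. Symbols were matched to GENCODE M21, and 20079 matched.

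All 18 libraries entered 1 fit with a mean per group in edgeR 4.0.16 (robust quasi-likelihood, TMM factors, filterByExpr by group), without an animal block. The contrast was iTreg minus Th17p, both with vehicle, two-sided, with Benjamini-Hochberg adjustment over 11526 genes; 9291 genes did not pass the filter. Levels are CPM on TMM library sizes, or TPM as deposited. The SE of a change was derived from its test, as the absolute log2 fold change over the square root of the quasi-likelihood F statistic. Counting intervals are exact binomial, at 95%, and like the floor of 3 counts over a group they cover counting error only. Replicates are separate animals named in the labels, shared by both groups. Deviations from the group means correlated at 0.19, 0.10 and 0.18 within an animal and at -0.17 to 0.01 between animals. Fits with the animal as a block were alternatives, and their values stand beside results whose call they change.

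Members and gene lists were chosen with earlier results of these data known. Named genes were 40 set genes, up to 4 called members per list and direction by smallest p, the 12 largest changes per direction at a mean log2 CPM of at least 2, the 8 largest TPM differences and 6 smallest p per direction, and genes of set loci. Some of these are not reported here, and further list members were added after their values were seen. Alternatives used DESeq2 1.42.0, limma 3.58.1 on log2(TPM + 1) and log2(TPM + 0.1), other scaling, other filters, single runs, the 6 libraries alone, the animal block, and each library or animal left out. Promoter windows are from RefSeq (GRCm38.p6), for 8832 tested genes. Windows on chromosome 18 were not used.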

Additional observations from a re-analysis of the deposited data

How the results depend on the processing

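Over 21 alternatives, genes called numbered 2289 to 3809 against 3477. Leaving out 1 library or animal gave 2289 to 3115 calls in all, 1097 to 1574 higher and 1180 to 1588 lower. The lowest total, 2289, came without animal 2, and the lowest number of higher genes, 1097, without animal 1, where fewer libraries enter the fit. With limma on log2(TPM + 1), 837 genes passed with at least a 2-fold change, 362 higher and 475 lower, since the pseudocount shrinks low genes. With the animal as a block there were 3809 calls in all libraries (1859 higher, 1950 lower) and 3669 in the 6 alone, and DESeq2 gave 3601. Without scaling factors 59.5% of calls were higher against 47.9%. No gene called in both the main fit and an alternative changed sign. Among genes not called, the log2 fold change of Mcm3 ranged from -0.053 to 0.104 and that of Il2 from -0.69 to 0.037 with 1 library or animal left out, the highest of Il2 without animal 2; the cause was not tested. The share of the TPM scale on listed genes differed by -2.01 percentage points, and by -2.80 to -1.35 with 1 animal left out. No paired permutation of 3 animals can pass the threshold. The cultures differ in several cytokines at once, so that the part of each cytokine cannot be told apart. A group with no count gives a bound only, and 1 to 3 counts give ratios with wide intervals.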

Other observations

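The gene families given here were picked after their values were seen, so that their counts are a description and support nothing. Replication-dependent histone genes (symbols that start with Hist) were higher in iTreg in 29 of 62 tested members and lower in none, with a median of 0.85, where 14.5% of all genes tested were higher. Their summed level was 1468 to 1809 CPM in iTreg and 720.1 to 883.4 CPM in Th17p libraries, with no overlap. These genes are close copies of each other, so that reads may have been split among them, and their messages carry no poly(A) tail, so that the library method bears on their level.

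GTPases of the GIMAP family, which support T cell survival and lie in 1 cluster, were lower in iTreg in 6 of 8 members and higher in none. Gimap7 was 15.3 ± 4.55 CPM in iTreg and 96.4 ± 15.1 CPM in Th17p cells (-2.65 ± 0.25), Gimap4 139 ± 4.6 and 289.8 ± 41.9 CPM (-1.06 ± 0.10) and Gimap6 141 ± 14.4 and 318 ± 32.7 CPM (-1.17 ± 0.11). Metallothioneins, which bind zinc and copper, were lower in both tested members. Mt1 measured 33.4, 19.1 and 10.6 CPM in iTreg and 184, 207 and 162 CPM in Th17p libraries (-3.15 ± 0.36), and Mt2 3.34, 1.65 and 1.43 and 42.6, 57.3 and 41.5 CPM (-4.49 ± 0.33). Tgm2, a transglutaminase, measured 14.4, 32.3 and 52.4 CPM in iTreg and 902, 648 and 845 CPM in Th17p libraries (-4.58 ± 0.35). All 3 tested adenosine receptors were lower, among them Adora2b (5.28 ± 1.06 against 21.1 ± 1.18 CPM, -1.99 ± 0.24), beside the higher Nt5e and lower Entpd1 of the adenosine-making pair.

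Genes of MHC class II and of B cells were divided in direction. Cd74, the invariant chain, measured 59.1, 94.8 and 91.7 CPM in iTreg and 14.1, 11.9 and 10.7 CPM in Th17p libraries, and H2-DMa, which loads peptide, was 70.4 ± 1.85 against 30.7 ± 2.42 CPM (1.2 ± 0.13). H2-Ab1, a chain of the class II molecule, went the other way, at 28.4 ± 4.73 CPM in iTreg and 113 ± 8.67 CPM in Th17p cells (-1.99 ± 0.25), and Ciita, the class II activator, averaged 0.176 CPM in iTreg and 0.263 CPM in Th17p cells. Cd79b, which signals for the B cell receptor, was higher (13.7 ± 1.65 against 1.74 ± 0.636 CPM, 2.95 ± 0.35), and Ebf1, a B lineage factor, lower (0.176 ± 0.153 against 25.5 ± 7.4 CPM, -7.01 ± 0.49). Of other B cell markers, Cd79a, Ms4a1, Pax5 and Cd22 were at most 1.2 CPM on average in either group. The part of stray B cells in these values was not tested.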
